A study of Mus musculus with 28 samples.

Results

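The genes described here were 10 components of interleukin 1 and interleukin 6 receptor signalling, Il1r1, Il1r2, Il1rap, Il1rn, Il1b, Myd88, Il6ra, Il6st, Stat3 and Socs3, out of 54446 genes listed in the count tables. They were picked as named receptors, ligands and relay proteins around one measured value, the higher level of Il1r1 in the liver of mice given nicotinamide mononucleotide (NMN, a precursor of the coenzyme NAD+). Liver and kidney were taken from male C57BL/6 mice (C57BL6J in the methods) aged 8 weeks after 7 days of gavage, and polyA-selected RNA was sequenced from 28 libraries. Mice received water once daily, NMN once daily (1340 mg/kg/d), water 2 times daily or NMN 2 times daily (2680 mg/kg/d), with no genetic change in any group. Each organ gave 4 water and 4 NMN libraries from the once daily experiment and 3 and 3 from the other experiment, and the water mice are named here by the dose of the experiment they belonged to. The total count of reads assigned to genes was 12688324 to 33872983 per library. The libraries of a group are called biological replicates by the study, but which mouse gave which library was not given, and p-values measured the spread between these libraries.

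Interleukin 1 binds its receptor Il1r1, which then recruits the accessory chain Il1rap. The adaptor Myd88 passes the signal to kinases that release the transcription factor NF-kB. Il1rn encodes the receptor antagonist, which occupies Il1r1 without signalling, and Il1r2 is a decoy receptor. Interleukin 6 binds Il6ra, the shared chain Il6st (gp130) transmits the signal, Stat3 carries it to the nucleus, and Socs3 is induced by Stat3 and brakes the receptor. In the liver both cytokines are known for switching on acute phase proteins.

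All 10 genes had at least one promoter window in the RefSeq table of the mouse assembly GRCm38.p6, 13 windows in all. The 250 bases upstream of the annotated start are shown for the 3 genes past the threshold in the liver at 2680 mg/kg/d, read 5′ to 3′ on the strand of the gene. Capitals mark a match to one of the searched motifs, and lower case letters belong to no match. The Il1r1 windows lie at chr1:40224830-40225079 (distal start) and chr1:40266336-40266585 (internal start), both on the plus strand, the shown Il1rn window at chr2:24345041-24345290 on the plus strand, and the Il6ra window at chr3:89913197-89913446 on the minus strand.
Il1r1 distal: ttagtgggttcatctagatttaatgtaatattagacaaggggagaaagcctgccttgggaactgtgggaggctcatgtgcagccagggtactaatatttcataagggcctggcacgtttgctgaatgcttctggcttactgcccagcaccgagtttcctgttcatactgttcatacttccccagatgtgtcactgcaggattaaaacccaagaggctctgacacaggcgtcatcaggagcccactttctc
Il1r1 internal: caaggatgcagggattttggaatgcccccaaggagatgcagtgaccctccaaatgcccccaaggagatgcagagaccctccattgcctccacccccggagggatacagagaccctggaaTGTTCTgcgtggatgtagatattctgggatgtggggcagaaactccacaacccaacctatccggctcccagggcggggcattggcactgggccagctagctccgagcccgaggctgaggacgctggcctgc
Il1rn: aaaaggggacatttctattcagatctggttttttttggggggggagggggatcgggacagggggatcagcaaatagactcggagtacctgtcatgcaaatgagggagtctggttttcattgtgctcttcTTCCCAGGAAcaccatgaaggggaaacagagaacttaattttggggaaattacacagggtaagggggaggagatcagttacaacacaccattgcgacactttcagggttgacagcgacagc
Il6ra: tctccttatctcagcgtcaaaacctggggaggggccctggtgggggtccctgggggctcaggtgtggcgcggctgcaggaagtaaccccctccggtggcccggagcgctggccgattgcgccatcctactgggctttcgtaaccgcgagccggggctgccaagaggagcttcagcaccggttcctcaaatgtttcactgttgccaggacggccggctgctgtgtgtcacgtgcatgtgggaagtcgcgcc

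The searched motifs, on both strands, were NF-kB (GGGA and TTTCC around 1 free base, and the same with C as that base), STAT (TTCNNNGAA, and TTC and GAA around 4 free bases), C/EBP (TTGCGCAA and TTGCNNCAA), the glucocorticoid receptor site (AGAACA alone, and as an inverted pair with 3 free bases between), a PPAR direct repeat (AGGTCA repeated with 1 free base between) and the TATA box TATAAA. The internal Il1r1 window held 1 match to AGAACA, read as TGTTCT on this strand, 131 to 126 bases before the start, a motif found in 16.1% of all 32851 windows of this length. The distal Il1r1 window and the Il6ra window held none of the searched motifs. Il1rn held TTCCCAGGAA, a STAT match with 4 free bases, 121 to 112 bases before the start, a motif present in 5.85% of windows, and the window of a neighbouring start that overlaps it held the same match, while the third Il1rn window, at chr2:24336610-24336859, held none. Among the other genes, TTCNNNGAA (7.02% of windows) was found in the windows of Il1r2, Myd88 and Socs3, AGAACA in that of Stat3, and TATAAA (12.4% of windows) in those of Il1b and Myd88. The NF-kB motifs, present in 0.356% and 0.14% of windows, were found in none of the 13 windows. The letters of a motif do not show that a factor bound there.

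Before the values, the libraries were checked against their labels. The hepatocyte gene Alb averaged 75880 CPM (gene counts relative to the size of the library, scaled by TMM within one organ and experiment) in the liver of water mice at 1340 mg/kg/d, and the kidney proximal tubule gene Kap averaged 22600 CPM in the kidney. One liver library, NMN replicate 4 at 1340 mg/kg/d, stood apart, with 12.8% of its reads outside any gene against 4.91 to 7.44% in the other 7 liver libraries of that experiment. A liver library of the NMN group at 2680 mg/kg/d, replicate 1, carried distal kidney tubule markers at a summed 6.41 CPM against 0.0957 and 0.21 CPM in the other 2 libraries of its group and 0.206 to 1.66 CPM in the 3 water libraries. All 8 liver libraries at 1340 mg/kg/d carried these markers at 6.46 to 9.76 CPM. Without these 2 libraries, each left out of its own comparison, the log2 fold change of Il1r1 was 1.95 at 1340 mg/kg/d and 1.23 at 2680 mg/kg/d, given as a description. In the kidney, mitochondrial genes took 8.92 to 10.6% of counts at 1340 mg/kg/d and 19.8 to 21.6% at 2680 mg/kg/d, so levels are not compared between the experiments.

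In the liver at 1340 mg/kg/d, Il1r1 was the member with the clearest difference, and Il6ra and Stat3 of the interleukin 6 pathway were also higher in the NMN libraries. The choice of the genes rests on this contrast, so its values are a description and carry no test. Il1r1 read 22.8, 24.5, 29.4 and 44.1 CPM in the water libraries and 85.9, 145.7, 118.7 and 87.4 CPM in the NMN libraries. The lowest NMN library thus lay well above the highest water library. The log2 fold change was 1.86 (SE 0.24). Leaving out one library at a time gave 1.69 to 2.10, and Il1r1 was no longer called without water replicate 2 or 3 or NMN replicate 2 or 3. Per kilobase of exons, a scale on which genes can be compared, the Il1r1 level went from 4.75 ± 1.52 (SD, n = 4) to 17.2 ± 4.48 (SD, n = 4) CPM per kb. Il6ra, the ligand-binding chain for interleukin 6, read 23.3, 55.1, 45.7 and 55.0 CPM with water and 80.7, 104.8, 100.3 and 65.3 CPM with NMN, again without overlap, for a log2 fold change of 0.97 (SE 0.25). Stat3 read 73.3, 90.2, 106.7 and 137.2 CPM with water and 163.2, 149.6, 142.0 and 163.1 CPM with NMN, a log2 fold change of 0.60 (SE 0.17). The lowest of the NMN libraries was again above the highest water library.

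The remaining genes differed less or scattered more at this dose. Myd88 averaged 15.7 CPM with water and 20.7 CPM with NMN (log2 fold change 0.40, SE 0.17), with overlapping libraries. Socs3 spread widely, from 3.24 to 23.6 CPM in the water libraries and from 14.5 to 40.7 CPM in the NMN libraries (log2 fold change 0.81, SE 0.58). Il1rap (log2 fold change -0.04, SE 0.12), Il6st (0.12, SE 0.14) and Il1rn (0.05, SE 0.60) overlapped between the groups, and Il1b and Il1r2 did not pass the count filter. Of the 8 genes that passed it, 1 was past an adjusted p of 0.05, against 0.0161% of the 12449 genes tested, and 3 had groups that did not overlap in CPM, against 3.53% of all tested genes, shares from which nothing is read since this contrast chose the genes. In whole-organ RNA, more cells of a type and more RNA per cell cannot be told apart.

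**Figure D1:**
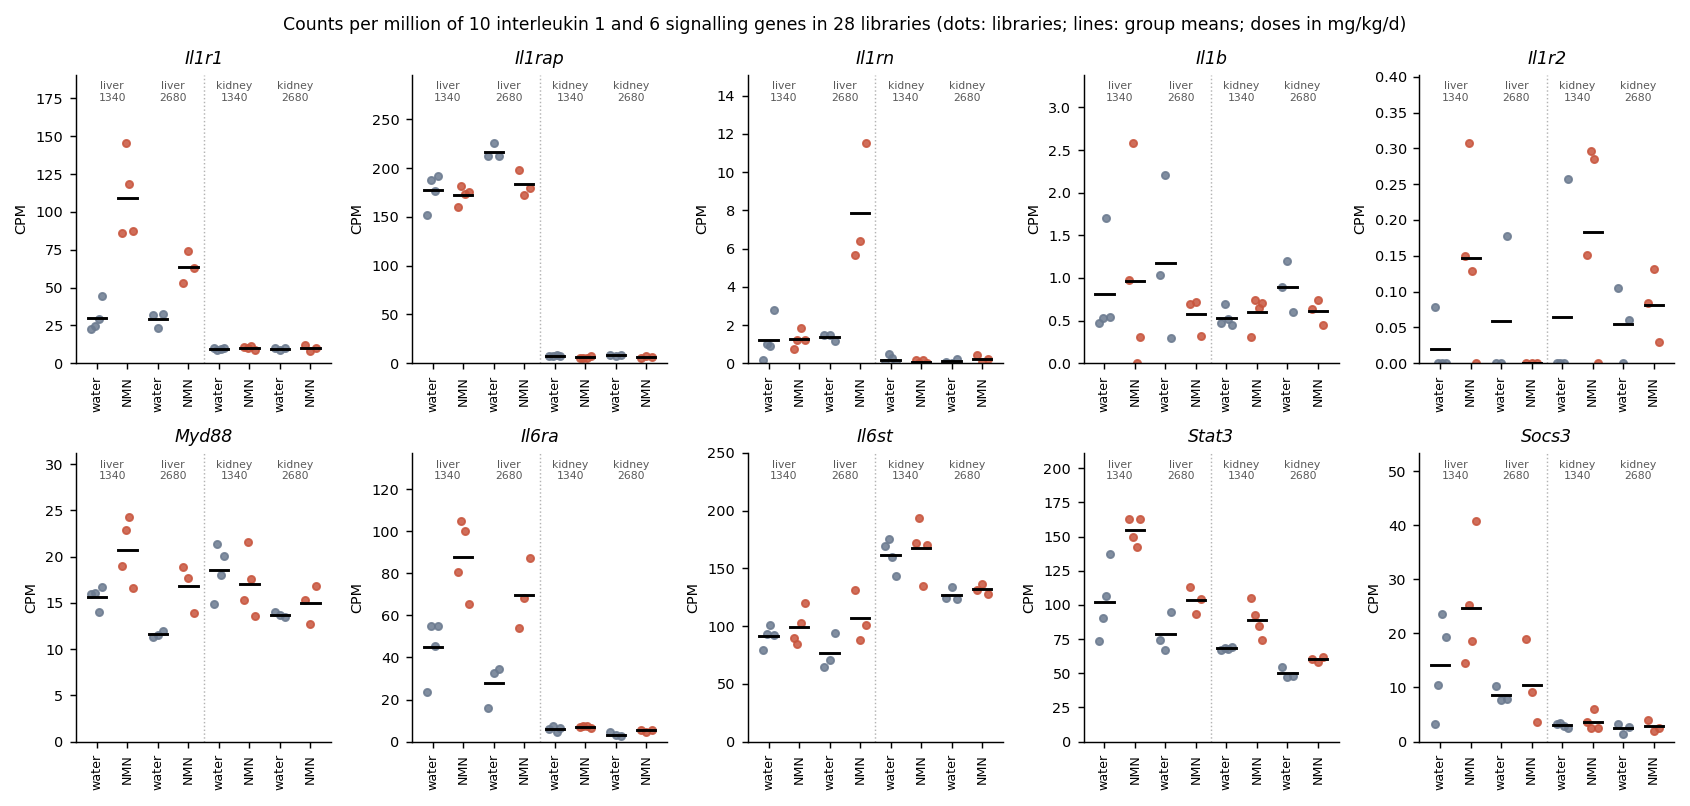
CPM (y axis, linear from 0) of the 10 genes in all 28 libraries, by organ, dose in mg/kg/d and treatment (x axis), with one dot per library and a line at the group mean. Il1r1 lies between 22.8 and 44.1 CPM in liver water libraries and between 52.8 and 145.7 CPM in liver NMN libraries, while all kidney libraries stay between 7.80 and 11.7 CPM.

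In the liver at 2680 mg/kg/d, Il1r1, Il1rn and Il6ra were past the threshold, all higher with NMN, and no member was past it in the other direction. These were 3 of the 9 genes that passed the filter (Il1r2 did not), against 7.08% of the 12477 genes tested past it in either direction and 3.05% past it upwards. Without Il1r1, whose liver level chose the genes, the count was 2 of 8, and nothing is read from the share that includes it. Il1r1 read 32.1, 23.0 and 32.6 CPM with water and 52.8, 74.4 and 62.7 CPM with NMN, and the groups did not overlap. The log2 fold change was 1.12 (SE 0.19), given as a description because the level of Il1r1 in the liver chose the genes. The change at 2680 mg/kg/d was smaller than at 1340 mg/kg/d by 0.73 on the log2 scale (SE 0.33), also a description, and since the doses were separate experiments, dose and experiment cannot be told apart.

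Il1rn, the receptor antagonist, showed the largest fold change among the 9 genes. Its CPM was 1.49, 1.49 and 1.19 in the water libraries and 5.67, 6.41 and 11.5 in the NMN libraries, so every NMN library was more than 3 times the highest water library. The log2 fold change was 2.49 (SE 0.35), with an adjusted p of 0.00345 by edgeR's quasi-likelihood test. It stayed past the threshold in each of the 6 fits that left out one library, with a log2 fold change of 2.11 to 2.67. At 1340 mg/kg/d the same gene averaged 1.21 ± 1.11 (SD, n = 4) CPM with water and 1.26 ± 0.46 (SD, n = 4) CPM with NMN. A test of the difference between the doses, added after these values had been seen, gave 2.45 (SE 0.75) on the log2 scale and an adjusted p of 0.325 by edgeR, in a comparison that called 0.0746% of all genes, so the dose difference of Il1rn was not past the threshold.

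Il6ra read 15.8, 32.8 and 34.6 CPM with water and 53.8, 68.1 and 87.3 CPM with NMN. The groups did not overlap, and the log2 fold change was 1.33 (SE 0.29) with an adjusted p of 0.0295 by edgeR. This call depended on single libraries: without water replicate 2 or 3, or NMN replicate 2 or 3, the adjusted p by edgeR was 0.077, 0.0502, 0.0611 and 0.101. Its log2 fold change remained between 1.05 and 1.52 in all 6 such fits.

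The other members did not pass the test in the liver at 2680 mg/kg/d. Myd88 read 11.3, 11.6 and 11.97 CPM with water and 18.8, 17.7 and 13.9 CPM with NMN, with no overlap and an adjusted p of 0.113 by edgeR (log2 fold change 0.53, SE 0.19). The exons of Myd88 share 11.3% of their bases with Acaa1a, a peroxisomal thiolase gene, and reads lying within both genes were counted to neither. Il6st (log2 fold change 0.48, SE 0.19), Stat3 (0.40, SE 0.17) and Socs3 (0.29, SE 0.51) had adjusted p-values of 0.151, 0.166 and 0.776 by edgeR. Il1rap was lower in each NMN library, at 198.6, 172.5 and 179.5 CPM against 212.4, 225.8 and 212.8 CPM, without passing the test (log2 fold change -0.24, SE 0.13, adjusted p = 0.279 by edgeR). Il1b, the ligand, stood at 1.03, 2.21 and 0.30 CPM with water and 0.69, 0.72 and 0.32 CPM with NMN, with an adjusted p of 0.401 by edgeR. In all, 5 of the 9 genes had groups without overlap, 4 higher and 1 lower, against 29.8% of all tested genes, so the lack of overlap alone was common in this comparison.

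**Figure D2:**
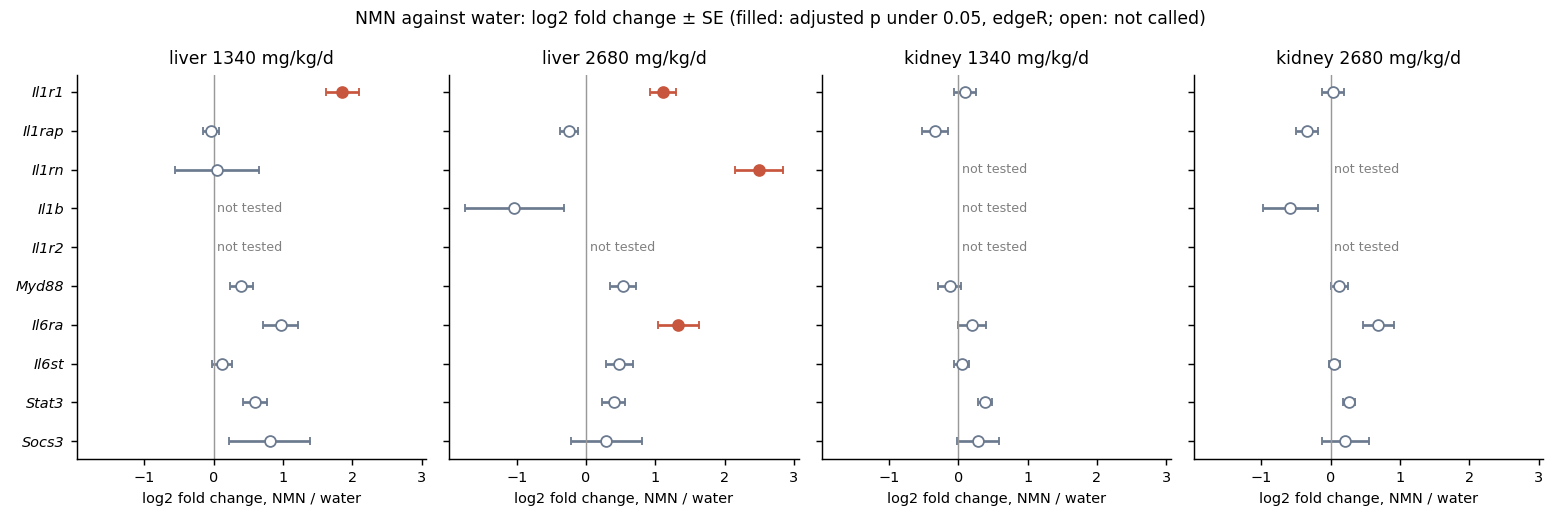
Log2 fold change of NMN against water (x axis) with its standard error for each of the 10 genes (y axis) in the 4 comparisons, filled where the adjusted p was under 0.05 by edgeR. Il1r1 is filled in both liver panels, Il1rn and Il6ra in the liver at 2680 mg/kg/d, and no gene is filled in the kidney panels; the Il1r1 liver values are a description.

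The levels of the receptor chains set beside each other, per kilobase of exons and within each library, describe the same shift in another unit. In the liver the ratio of Il1r1 to Il1rap was 0.302 ± 0.0775 (SD, n = 4) with water and 1.13 ± 0.25 (SD, n = 4) with NMN at 1340 mg/kg/d. At 2680 mg/kg/d it was 0.241 ± 0.0518 (SD, n = 3) and 0.623 ± 0.148 (SD, n = 3). The ranges of the ratio did not overlap at either dose, a description, since the liver level of Il1r1 chose the genes. In the kidney, where Il1rap was scarce, the ratio was 2.25 ± 0.326 (SD, n = 4) with water and 3.11 ± 0.745 (SD, n = 4) with NMN at 1340 mg/kg/d, and the ranges overlapped. The ratio of Il6ra to Il6st in the liver was 0.622 ± 0.184 (SD, n = 4) with water and 1.18 ± 0.371 (SD, n = 4) with NMN at 1340 mg/kg/d, with overlapping ranges.

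In the kidney no member was past the threshold at either dose, which was the case for all but 0.12% of 14972 tested genes at 1340 mg/kg/d and 0.4% of 15245 at 2680 mg/kg/d. Il1r1 was nearly level: it averaged 9.51 ± 0.725 (SD, n = 4) CPM with water and 10.2 ± 1.31 (SD, n = 4) CPM with NMN at 1340 mg/kg/d, and 9.63 ± 0.884 (SD, n = 3) and 9.87 ± 1.97 (SD, n = 3) CPM at 2680 mg/kg/d. Its log2 fold changes were 0.09 (SE 0.16, adjusted p = 0.907 by edgeR) and 0.04 (SE 0.16, adjusted p = 0.957 by edgeR). The counts of members called were 0 of 7 and 0 of 8 by edgeR and 0 in both by DESeq2, while 1 and 3 members had an unadjusted p under 0.05.

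Stat3 was the member nearest to a call in the kidney at 1340 mg/kg/d. It read 67.3, 68.7, 67.8 and 69.2 CPM with water and 105.1, 92.4, 84.6 and 74.3 CPM with NMN at 1340 mg/kg/d, with an adjusted p of 0.183 by edgeR (log2 fold change 0.39, SE 0.10). The water libraries were almost identical, and each NMN library was above them. At 2680 mg/kg/d Stat3 read 54.7, 46.9 and 48.3 CPM against 60.1, 58.1 and 62.0 CPM, also without overlap, with an adjusted p of 0.247 by edgeR (log2 fold change 0.27, SE 0.08). Il6ra averaged 3.27 ± 1.01 (SD, n = 3) and 5.29 ± 0.484 (SD, n = 3) CPM there (log2 fold change 0.68, SE 0.22, adjusted p = 0.265 by edgeR), and Il1rap 8.33 ± 0.593 (SD, n = 3) and 6.58 ± 0.844 (SD, n = 3) CPM (log2 fold change -0.34, SE 0.15, adjusted p = 0.443 by edgeR). Groups without overlap were found for 1 of 7 members at 1340 mg/kg/d, against 5.12% of all tested genes, and for 3 of 8 at 2680 mg/kg/d, against 17.2%. The effect of NMN in the kidney differed between the doses for 0 of 8 members, in a comparison that called 0.00625% of all genes and none of the members had an unadjusted p under 0.05 by edgeR or an adjusted p under 0.05 by DESeq2.

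The difference between organs was tested directly at 2680 mg/kg/d. The effect of NMN on Il1r1 was larger in the liver than in the kidney by 1.07 on the log2 scale (SE 0.26), and Il1r1 was the 1 member of 9 past the threshold, against 2.65% of the genes tested; since the liver level chose the genes, this is a description. Leaving out one library ended that call in 9 of 12 fits, with the log2 difference between 0.90 and 1.21 in all 12; it was kept without liver NMN replicate 1 or 2 or kidney NMN replicate 1. At 1340 mg/kg/d the same difference for Il1r1 was 1.75 (SE 0.28). Il6ra was called in the liver at 2680 mg/kg/d and not in the kidney, and the test of the difference did not separate the organs (0.63, SE 0.41, adjusted p = 0.411 by edgeR). Il1rn did not pass the filter in the kidney, where it had 5 counts over the 3 water libraries and 19 over the 3 NMN libraries, and it entered the comparison between organs through its liver counts, so the estimate there (1.24, SE 1.19, adjusted p = 0.596 by edgeR; -0.30 to 1.82 with one library left out) does not bear on a difference between organs. Without Il1rn the count of members past the threshold was 1 of 8.

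Il1r2 was close to absent in both organs. Its highest count in any library was 5, and it had 0 counts in the 57198137 reads of the liver NMN libraries at 2680 mg/kg/d. A count of 3 corresponded to 0.0886 to 0.236 CPM, depending on the depth of the library, so no fold change is given for this decoy receptor. Il1b was also low, with at most 43 counts in a library.

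Levels in water mice were set out for each organ. Per kilobase of exons, the order in the liver at 1340 mg/kg/d was Il1rap (15.6 ± 1.56), Stat3 (10.7 ± 2.86), Il6st (8.23 ± 0.821), Myd88 (6.09 ± 0.458), Il6ra (5.18 ± 1.73), Socs3 (4.88 ± 3.14) and Il1r1 (4.75 ± 1.52), all in CPM per kb (SD, n = 4). Stat3 and Il6st lay within their spread of each other, as did the last 4 genes. Il1b (0.425 ± 0.31), Il1rn (0.219 ± 0.2) and Il1r2 (0.0104 ± 0.0207) were far lower. In the kidney of the same experiment Il6st led with 14.6 ± 1.25 CPM per kb (SD, n = 4), followed by Myd88 at 7.21 ± 1.1 and Stat3 at 7.16 ± 0.0882, while Il1r1 stood at 1.5 ± 0.114, Il6ra at 0.706 ± 0.141 and Il1rap at 0.67 ± 0.0533 CPM per kb (SD, n = 4).

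When both organs were fitted together, the accessory chain Il1rap was higher in the liver by 5.49 (SE 0.14) on the log2 scale at 1340 mg/kg/d and 5.56 (SE 0.13) at 2680 mg/kg/d, with adjusted p-values of 1.18e-12 and 3.21e-11 by edgeR. Il6ra was higher by 3.83 (SE 0.27) and 3.92 (SE 0.33), Socs3 by 3.18 (SE 0.50) and 2.66 (SE 0.30), and Stat3 by 1.53 (SE 0.17) and 1.51 (SE 0.15). Il1r1 was higher by 2.62 (SE 0.21) and 2.45 (SE 0.17). Il1rn passed the filter at 2680 mg/kg/d alone and through its liver counts (78 over the 3 liver libraries, 5 over the 3 kidney libraries), so its call was fixed by the filter and no fold change is given. In total 6 of 7 members were called higher in the liver at 1340 mg/kg/d, against 30.9% of all genes tested, and 7 of 9 at 2680 mg/kg/d, against 31% of them, by TMM scaling; without Myd88, whose sign turned with the scaling, the counts were 5 of 6 and 6 of 8, the latter 5 of 7 without Il1rn as well. The size of these differences depended on the scaling between organs. With library size alone, the median over all genes moved from -0.10 to -1.05 at 1340 mg/kg/d and from -0.17 to -1.10 at 2680 mg/kg/d, and the share of calls that were higher in the liver fell from 46.1% to 14.2% and from 44% to 15.1%. The share of all tested genes called higher in the liver was then 11.5% and 12.5%. Il1r1 was then higher by 1.67 and 1.53, Il1rap by 4.54 and 4.63, and Il6ra by 2.87 and 2.996. The sign turned for Myd88, from 0.71 (SE 0.15) and 0.61 (SE 0.14), both called with TMM, to -0.25 and -0.32, not called. It also turned for Il6st, from 0.12 at both doses, not called, to -0.82 and -0.81, called. For these 2 genes no direction between the organs is given.

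**Figure D3:**
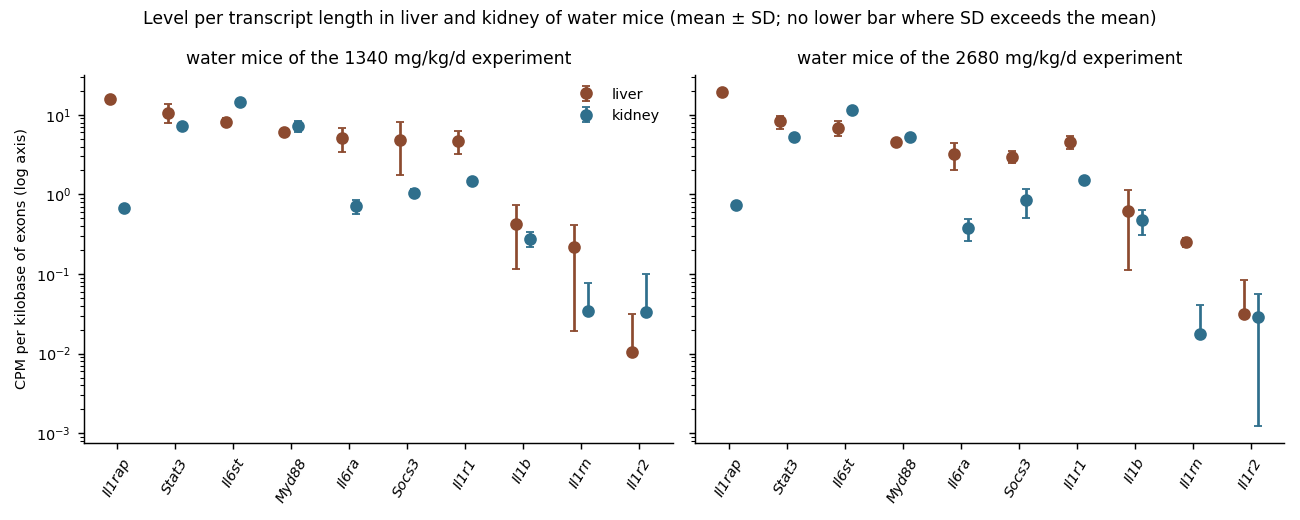
CPM per kilobase of exons (y axis, log scale) of the 10 genes (x axis) in liver and kidney of water mice, mean ± SD of 4 libraries (left) and 3 libraries (right). The means of Il1rap, Il6ra, Socs3, Il1r1 and Stat3 sit higher in the liver in both panels, as do those of the scarce Il1rn and Il1b. Il1rap stands at 15.6 against 0.67 CPM per kb at 1340 mg/kg/d, on a scale with no scaling between organs.

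The wider pathway was read from 8 gene lists. In the liver at 2680 mg/kg/d the list of the MyD88 and NF-kB relay had 5 of 29 tested genes called, each of them higher in the NMN libraries, against 3.05% of all tested genes called higher, and the list's median change was 0.37 on the log2 scale against 0.00 for all tested genes. Nfkbia, which encodes the inhibitor that holds NF-kB in the cytoplasm, rose from 23.9 to 55.9 CPM (log2 fold change 1.23, SE 0.19, adjusted p = 0.00605 by edgeR). Ikbkg, the regulatory subunit of the kinase that marks this inhibitor for destruction, rose from 40.0 to 87.6 CPM (1.13, SE 0.21, adjusted p = 0.0118 by edgeR), and its exons share 5.15% of their bases with G6pdx. Traf6, the ubiquitin ligase of the relay, rose from 14.5 to 27.3 CPM (0.92, SE 0.20, adjusted p = 0.0239 by edgeR). The other called genes were Tab2 and Irak1, with log2 fold changes of 1.02 and 0.57. Tab2 was also called in the comparison of the NMN effect between organs (1.15, SE 0.28, adjusted p = 0.046 by edgeR). At 1340 mg/kg/d in the liver no gene of this list was called among 28 tested, in a comparison that called 0.0161% of all tested genes. With so few genes called at 1340 mg/kg/d, the 2 counts cannot show whether this list differed between the doses. The list's median change at 1340 mg/kg/d was 0.13 on the log2 scale. Tab2 averaged 51.2 CPM with water and 72.1 CPM with NMN at 1340 mg/kg/d.

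The downstream lists are given next. Of 28 acute phase genes, all tested in the liver at 2680 mg/kg/d, 2 were called higher (Orm2 and Il1rn itself) and 3 lower, against 3.05% and 4.03% of all tested genes, with a median of -0.08. Orm2, an acid glycoprotein gene, rose from 115.2 to 280.2 CPM (log2 fold change 1.28, SE 0.27, adjusted p = 0.0239 by edgeR). Apcs, which encodes serum amyloid P, fell from 142.5 to 72.8 CPM (-0.97, SE 0.19, adjusted p = 0.0148 by edgeR), and Serpina3m and Itih4 fell with log2 fold changes of -1.03 and -0.56. Orm2 and Serpina3m belong to families of closely similar genes, between which reads could be split. Of 17 tested cytokine and NF-kB target genes, Nfkbia alone was called, a share near the 7.08% of all tested genes, with 11 of the 17 higher and a median of 0.35. At 1340 mg/kg/d 22 of 28 acute phase genes (median 0.20) and 12 of 16 of these target genes (median 0.44) were higher with NMN, none called. In the JAK and STAT list 0 of 21 tested genes were called by edgeR at 2680 mg/kg/d, against the same 7.08%. The smallest p there was that of Socs6, with 7.68 CPM with water and 12.5 CPM with NMN (adjusted p = 0.069 by edgeR), and Jak1, the most abundant, averaged 85.2 and 95.01 CPM. Among the cytokines of the interleukin 6 family, Ctf1 (cardiotrophin 1) was the 1 gene that passed the filter, and it fell from 5.92 to 2.28 CPM (-1.38, SE 0.31, adjusted p = 0.027 by edgeR). The other receptors were not called: Sigirr, an inhibitory member of the interleukin 1 receptor family, averaged 17.5 and 12.3 CPM (adjusted p = 0.173 by edgeR), and Lifr, the receptor for leukaemia inhibitory factor, 262.7 and 208.0 CPM (adjusted p = 0.258 by edgeR). Of the other ligands, Il18 averaged 12.1 and 11.5 CPM and the binding protein Il18bp 12.3 and 9.79 CPM, neither called.

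At 1340 mg/kg/d in the liver, Il1r1 was the 1 gene called across the 8 lists, in a comparison that called 0.0161% of all tested genes. Since the liver level of Il1r1 chose the genes, nothing is read from this count. Junb, a rapidly induced transcription factor gene of the target list, averaged 32.98 CPM with water and 80.1 CPM with NMN (log2 fold change 1.28, SE 0.20), and Osmr, the oncostatin M receptor, 1.30 and 3.25 CPM (1.32, SE 0.52), neither of them called. In the kidney the lists gave 1 call at each dose, both among acute phase genes, 1 of 22 tested at 1340 mg/kg/d and 1 of 16 at 2680 mg/kg/d, against 0.12% and 0.4% of all tested genes. Cp, which encodes the copper carrier ceruloplasmin, rose from 31.6 to 50.7 CPM at 1340 mg/kg/d (0.68, SE 0.12, adjusted p = 0.0393 by edgeR). Fgg, the fibrinogen gamma chain, rose from 9.23 to 18.8 CPM at 2680 mg/kg/d (1.03, SE 0.12, adjusted p = 0.00999 by edgeR). In the liver at the same dose Fgg averaged 5142 CPM with water and 3912 CPM with NMN, and its NMN effect was lower in the liver than in the kidney by 1.44 on the log2 scale (SE 0.24, adjusted p = 0.00897 by edgeR).

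**Figure D4:**
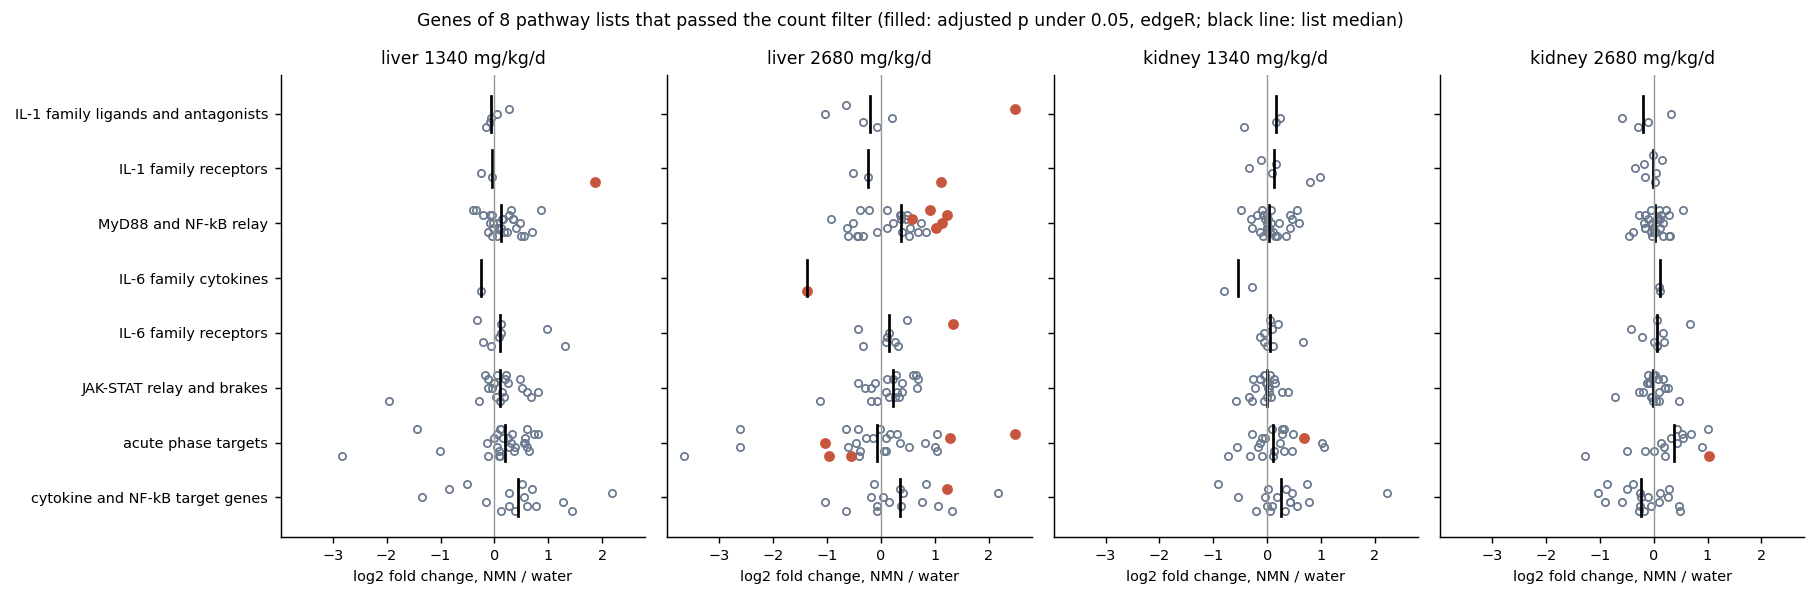
Log2 fold change of NMN against water (x axis) for each gene that passed the count filter in 8 pathway lists (y axis), in the 4 comparisons, filled where the adjusted p was under 0.05 by edgeR, with the list median as a black line. The MyD88 and NF-kB relay shows 5 filled points to the right of 0 in the liver at 2680 mg/kg/d, while the acute phase list has filled points on both sides.

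Between the organs in water mice, 26 of 27 tested acute phase genes were called higher in the liver at 1340 mg/kg/d and 26 of 28 at 2680 mg/kg/d by TMM scaling, against 30.9% and 31% of all tested genes. Of these 28 genes, 22 and 16 passed the filter among kidney libraries alone, so for the others the filter itself required a higher liver level. Lifr was higher in the liver by 2.86 (SE 0.15) and 2.63 (SE 0.13) on the log2 scale, and Il18 by 3.37 (SE 0.28) and 3.36 (SE 0.28). Sigirr was higher in the kidney, with log2 fold changes of -1.20 (SE 0.11) and -0.79 (SE 0.15), adjusted p-values of 7.33e-07 and 0.000661 by edgeR.

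Marker genes of the cell types in the tissue were read in the same liver libraries. All 8 markers of liver sinusoidal endothelium were higher with NMN at 1340 mg/kg/d, none of them called, and their summed level was 161.1, 190.2, 129.7 and 125.1 CPM with water and 193.0, 209.2, 212.5 and 183.5 CPM with NMN, with Clec4g as the most abundant NMN marker at 38.8 CPM. The 10 neutrophil markers summed to 14.6, 12.3, 3.27 and 2.19 CPM in the NMN libraries and 2.69 to 3.31 CPM in the water libraries, with Ngp, Camp and Ltf at 0 with NMN and S100a9 the most abundant at 3.04 CPM. Of these 10 markers 3 passed the count filter, all higher with NMN and none called. The NMN libraries with more neutrophil markers, replicates 1 and 2, had Il1r1 at 85.9 and 145.7 CPM, and replicates 3 and 4 at 118.7 and 87.4 CPM. Kupffer cell and macrophage markers averaged 158.1 CPM with water and 137.4 CPM with NMN, with Clec4f and Cd5l the most abundant. At 2680 mg/kg/d hepatocyte markers summed to 153000 ± 7642 (SD, n = 3) CPM with water and 117700 ± 7311 (SD, n = 3) CPM with NMN, and most of the sum was Alb (120600 and 94160 CPM). Of the 8 hepatocyte markers 6 were lower, 3 of them called (Ttr, Cyp3a11 and Serpina1c) against 4.03% of all tested genes called lower, and Tat and Hnf4a were higher, neither called. The endothelial markers there summed to 273.8 ± 26.2 (SD, n = 3) and 302.0 ± 53.4 (SD, n = 3) CPM, with overlapping libraries. The neutrophil markers at this dose also overlapped, with sums of 3.66, 1.23 and 3.02 CPM with water and 1.73, 2.92 and 0.736 CPM with NMN. Of 10 Kupffer cell and macrophage markers 9 were lower at this dose, none called, with sums of 224.4, 328.2 and 158.6 CPM with water and 186.5, 206.6 and 174.3 CPM with NMN that overlapped. In the list of T, NK and B cell markers 5 of 11 were tested, 2 of them higher and 3 lower with NMN. The sums over all 11 overlapped, at 8.04, 8.33 and 5.33 CPM with water and 8.87, 3.73 and 4.42 CPM with NMN. Cd4 alone was called, lower, from 1.72 to 0.233 CPM (log2 fold change -2.86, SE 0.60, adjusted p = 0.0199 by edgeR). A count of 3 corresponded to 0.15 to 0.165 CPM in these NMN libraries, so Cd4 was close to absent there and nothing is read from its call. The part of these cell types in the values of Il1r1, Il1rn and Il6ra was not tested.

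In the kidney the markers of the proximal tubule, the segment that takes back most of the filtered solutes, were lower with NMN. All 7 were lower at both doses, none of them called. Their summed level at 1340 mg/kg/d was 41960, 32880, 33980 and 40930 CPM with water and 32310, 25220, 30120 and 30920 CPM with NMN. At 2680 mg/kg/d it was 33340, 31820 and 34230 CPM with water and 23430, 29820 and 24930 CPM with NMN. The groups did not overlap at either dose, and Kap, the most abundant, averaged 22600 and 16690 CPM at 1340 mg/kg/d. The 8 markers of the loop, distal tubule and collecting duct were all higher at 1340 mg/kg/d, none of them called, with sums of 4467 to 5123 CPM with water and 5641 to 5984 CPM with NMN and Umod the most abundant. At 2680 mg/kg/d their sums overlapped, at 3526 to 4128 and 3865 to 4367 CPM. All 7 markers of podocytes and endothelium were higher with NMN at both doses, none of them called, with sums that overlapped at 1340 mg/kg/d (450.9 to 619 CPM with water, 467.6 to 774.8 CPM with NMN) and at 2680 mg/kg/d (440.1 to 596.6 and 539 to 594.9 CPM) and Podxl the most abundant. No marker of these 3 lists was without a count in any kidney group. The part of these cell types in the kidney values of Stat3, Il6ra and Il1rap was not tested.

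The genes whose profile over the 14 liver libraries was most like that of Il1r1 were looked up by Pearson's r of log2(CPM + 1), each value taken from the mean of the water libraries of its experiment. Over 11609 genes the nearest were Cyp4a10 (r = 0.941) and Cyp4a14 (r = 0.935), which encode fatty acid hydroxylases, Zbtb16 (r = 0.933), a zinc finger transcription factor gene, Inpp5e (r = 0.919), an inositol phosphatase gene, and Plin4 (r = 0.897), a lipid droplet protein gene. These are descriptions over libraries that share their treatment groups. Cyp4a14 averaged 89.6 CPM with water and 1711 CPM with NMN at 1340 mg/kg/d, and 261.3 and 2413 CPM at 2680 mg/kg/d. Zbtb16 averaged 3.11 and 26.6 CPM, and 3.44 and 14.1 CPM. For each of the 5 genes the NMN libraries lay above the water libraries at both doses, though at 2680 mg/kg/d the gap was small for Inpp5e (lowest NMN library 6.73 CPM, highest water library 6.59 CPM) and for Cyp4a10 (525.3 and 509.7 CPM). Of the other members, Stat3 ranked 20 (r = 0.844), Il6ra 109 (r = 0.746) and Myd88 110 (r = 0.745), Socs3 993 (r = 0.486), Il1rn 2155 (r = 0.342), Il6st 3060 (r = 0.251) and Il1rap 7783 (r = -0.183). In the 14 kidney libraries none of these liver genes was among the 5 nearest, which were Gm13889 (r = 0.853), Zfand5 (r = 0.821), Eef1b2 (r = 0.814), Psca (r = 0.811) and Fibp (r = 0.795) of 13934 genes. Of the other members, Socs3 ranked 9 in the kidney (r = 0.772), Stat3 937 (r = 0.415), Il6ra 3404 (r = 0.193) and Myd88 4183 (r = 0.146). Il6st ranked 13053 (r = -0.426) and Il1rap 13591 (r = -0.527). Il1r1 was nearly level in the kidney (log2 fold change 0.09 and 0.04), so nothing is read from these kidney ranks or from their difference to the liver.

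**Figure D5:**
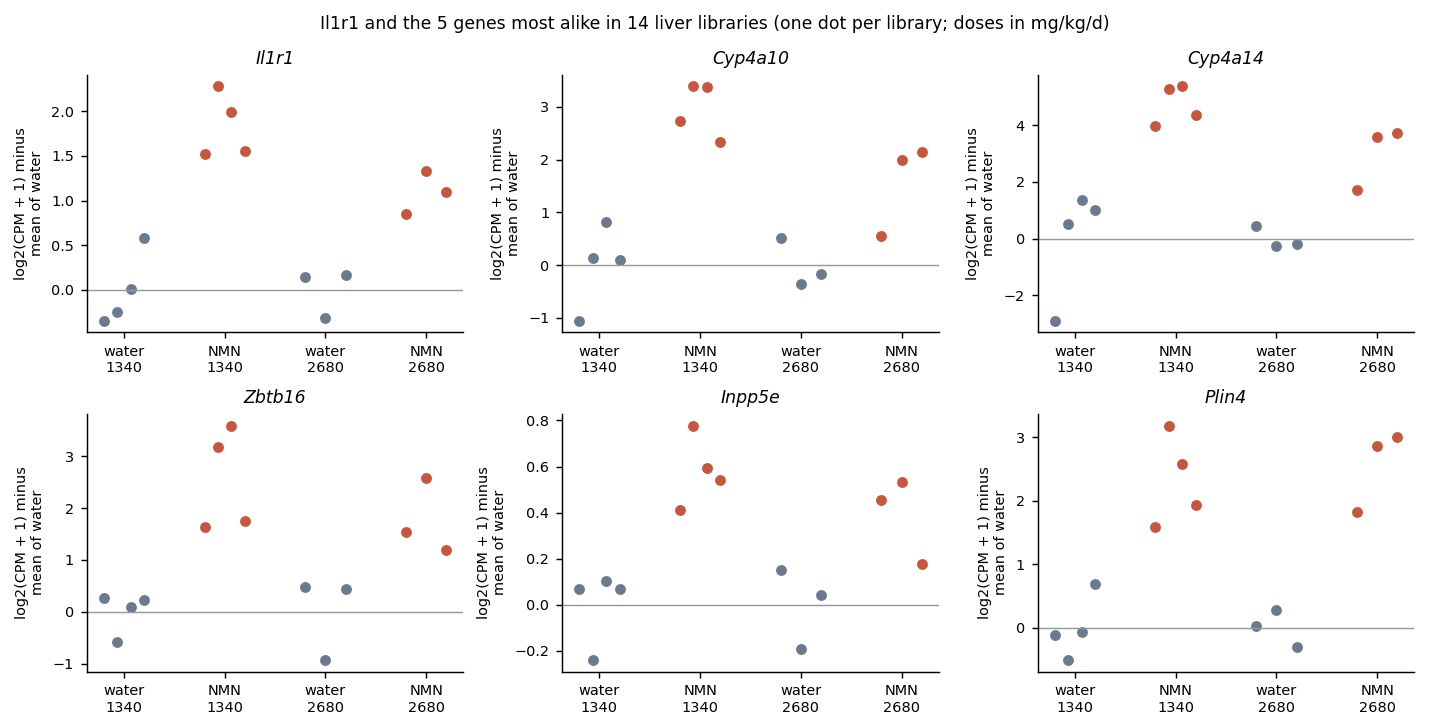
Log2(CPM + 1) minus the mean of the water libraries of the same experiment (y axis) for Il1r1 and the 5 genes most like it, in 14 liver libraries by treatment and dose in mg/kg/d (x axis), one dot per library, with a y axis of its own in each panel. In the Il1r1 panel all 7 NMN dots lie above all 7 water dots; in each panel the water dots spread around 0, and the lowest of the 4 Cyp4a14 water dots at 1340 mg/kg/d lies far below the other 3.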

How the data were processed

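PolyA-selected RNA libraries were made from liver and kidney of the mice described above. The authors used STAR for alignment and HTSeq for gene counting, which ignored strand and kept reads lying wholly within one gene; the deposited values are raw counts per gene. The assembly name given in the methods is not that of a mouse build, so no coordinate was taken from the counts, and symbols were matched through GENCODE M21 (53229 identifiers with the same version, 1180 without version, 37 unmatched). The 5 rows that name no gene held 18.6 to 29.3% of reads and were left out of library sizes and tests. Deposited totals were 12688324 to 33872983 counts per library, and no libraries were identical.

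Groups came from the labels. Counts were fitted in R 4.3.3 with edgeR 4.0.16 (filterByExpr, TMM, quasi-likelihood test, Benjamini-Hochberg adjustment over all tested genes, threshold 0.05), for each organ and experiment apart, for liver against kidney in water mice, and for interactions. The standard error of each log2 fold change was taken from its quasi-likelihood F statistic. CPM per kilobase uses the summed exon length. Alternatives were DESeq2 1.42.0, its size factors, no filter, the replicate number as a block, leaving out each library and all 14 libraries of an organ; library size without TMM and the liver interaction of dose and NMN were added after the values had been seen. Same-numbered water libraries of liver and kidney deviated together in all 7 pairs (correlations of 0.1005 to 0.2966 over genes), and the block changed no call of a member there. The 10 genes and all lists were chosen with earlier results of these data known. The genes named were the 10 members, called genes of each list (up to 3; other called genes and markers were named after their values had been seen), where none was called the gene of smallest p or highest CPM, and the 5 most like Il1r1. The sequencer used for each library and the mouse behind it were not given in the sources used here. Protein sequences were not used here.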

Additional observations from a re-analysis of the deposited data

Results flagged for a closer look

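The difference in the NMN effect on Il1r1 between liver and kidney at 2680 mg/kg/d was flagged because the test of the difference itself passed the threshold, at 1.07 on the log2 scale (SE 0.26); the genes were chosen on the liver level of Il1r1, and the call was kept in 3 of 12 fits that each left out one library.

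In groups of 4 libraries, 40 sets of member values were checked for a library far from the rest by Dixon's ratio of gap to range, at the 95% limit, and chance flags about 1 in 20 groups. Il1b was flagged in water replicate 3 of the liver at 1340 mg/kg/d, at 1.70 CPM against 0.47 to 0.54 CPM in the other 3. Il1r2 was flagged in water replicate 4 of the kidney at 1340 mg/kg/d, at 0.257 CPM (4 counts), and in water replicate 1 of the liver at 1340 mg/kg/d, at 0.0791 CPM (1 count), both against 0 counts in the other 3 libraries.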

How the results depend on the processing

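Of 860 alternative fits of a member's fold change, 812 kept the sign of the fit reported, and members that had been called were still called in 198 of 217. This pool includes liver against kidney, where leaving out one library kept the Il1r1 call in 8 of 8 and 6 of 6 fits. The NMN calls were less stable in such fits. Il6ra in the liver at 2680 mg/kg/d was kept in 2 of 6, Il1r1 and Il1rn there in 6 of 6 each. Il1r1 was kept in 4 of 8 in the liver at 1340 mg/kg/d and in 3 of 12 in the organ interaction. In the liver at 1340 mg/kg/d DESeq2 called 2 members (Il1r1 and Il6ra), and leaving out one library gave 0 to 1: Il1r1 was lost without water replicate 2 or 3 or NMN replicate 2 or 3, and kept in the other 4 of 8 fits with a log2 fold change of 1.69 to 2.10 over all. In the liver at 2680 mg/kg/d leaving out one library gave 2 to 3 called members, and a stricter rule (adjusted p under 0.01 and a fold change over 2 or under 0.5) 2. In the kidney at 1340 mg/kg/d no filter on low counts gave 1 called member, Stat3 (adjusted p = 0.0333 by edgeR). Between organs, library size without TMM turned Myd88 to -0.25 and -0.32 and Il6st to -0.82 and -0.81, by the construction of the scaling; Il1b at 2680 mg/kg/d was called without a filter and without liver water replicate 3 (adjusted p of 0.0455 and 0.00858 by edgeR). The replicate block, in NMN comparisons where numbers did not all pair the samples (correlations of -0.1309 to 0.239), changed no member's call and gave 16 called genes in the liver and 75 in the kidney at 1340 mg/kg/d, against 2 and 18. All-gene counts were 74, 1448, 159 and 236 by DESeq2 and 44, 1785, 269 and 514 without a filter in the liver at 1340 and 2680 and the kidney at 1340 and 2680 mg/kg/d, against 2, 883, 18 and 61; leaving out one library gave 0 to 18, 211 to 1308, 5 to 67 and 3 to 191. The stricter rule left 135 genes, and with all 14 libraries of the organ 6 and 35 genes were called in the liver at 1340 and the kidney at 2680 mg/kg/d; the block gave 92 in the latter. For the dose interaction in the kidney DESeq2 called 10 genes and no filter 106, against 1, and for the organ interaction 1232 and 1307, against 419. Leaving out one library gave 0 to 1 and 118 to 1347 genes in these interactions, and 0 to 1 called members in the organ interaction, where Il1r1 was lost in 9 of 12 fits; the block gave 2 genes in the kidney. The cause was not tested. Il1r2, and Il1rn in the kidney, had at most 10 counts per library, and Il1b in the kidney had 4 to 20. The standard errors of Socs3 in the liver were wide, at 0.58 at 1340 mg/kg/d and 0.51 at 2680 mg/kg/d, with 4 and 3 libraries per group.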
